A study of Vitis vinifera with 7 samples.

Results

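Sauvignon blanc berries at veraison (EL-34) were compared with green berries of the same grapevine cultivar (EL-31), with 3 arrays for each stage. These 6 arrays, chosen by the developmental stage in the labels, are 6 of the 7 in the series. The remaining array holds ripe berries (EL-38), and it was only read beside results of the other stages. No treatment, genotype or berry age is given beyond the stage, and all groups share the cultivar. The array titles of all stages also share the tag sh, for which no meaning is assumed here. Tissue of a stage was ground and pooled before RNA was extracted, and the 3 arrays of a stage are 3 extractions from that 1 pool. The p-values below therefore measure the spread of extraction, labelling and hybridisation, and say nothing of the spread between vines or berries. In whole berry tissue, fewer cells of a type and less RNA per cell cannot be told apart.

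Veraison is the onset of ripening in grapes, a fruit that ripens without a climacteric burst of ethylene. Around this stage berries soften, begin to store hexose sugars, lose malic acid and lose chlorophyll, and in red cultivars the skin also begins to make anthocyanins, which a white cultivar such as Sauvignon blanc does not. On the EL scale of grapevine growth, EL-31 stands for hard, pea-sized berries and EL-34 for berries that begin to soften. The labels name the tissue as berry and do not separate skin, flesh and seed. None of the 28811 probe identifiers was found in the gene table used for names, so gene groups and tissue markers could not be read. What follows describes the transcriptome by signal level, with probes given by identifier.

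The deposited value of a probe is a log2 signal, so that 1 unit is a 2-fold difference. Values ran from 4.06 to 15.99 on the 6 arrays, and their medians from 9.17 to 9.22. A signal under 7 (128 on the linear scale) is called dim below. The share of dim probes was 32.2%, 33.1% and 32.3% on the veraison arrays, against 31.9%, 31.5% and 32.2% on the green arrays. The share at 13 or above (8192 linear), called bright, was 10.5%, 10.9% and 10.6% on the veraison arrays, against 10.3%, 10.2% and 10.2% on the green arrays. The number of dim and of bright probes thus differed little between the stages. Where arrays are scaled to like distributions such numbers are held alike, so this says little about the stages. Array values scaled to like distributions cannot show a change in the total amount of mRNA, and such a change was not tested. Because the table holds no detection flags, dim is a low value on this scale and not the absence of a transcript.

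One array stood apart in each stage. The SD over probes of the log2 difference was 0.596 and 0.529 between veraison extraction 2 and the other veraison extractions, against 0.204 between those. Between green extraction 3 and the other green extractions it was 0.333 and 0.345, against 0.224 between those. Results are therefore given with all 6 arrays and without these 2.

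Differences were fitted with limma over all probes and called at a Benjamini-Hochberg adjusted p under 0.05. With 6 arrays 13881 probes (48.2% of those tested) were called, 7620 of them higher (26.4%) and 6261 lower (21.7%) at veraison. Rises were more numerous and falls were larger. The median estimate was 0.84 among probes called higher and -1.13 among those called lower. At a size of at least 2-fold the order of the directions turned, with 3048 probes higher (10.6%) and 3520 lower (12.2%), 6568 in all (22.8%). Without veraison extraction 2 and green extraction 3, 17070 probes (59.2%) were called. The median estimates were then 0.73 for the 9392 rises (32.6%) and -0.96 for the 7678 falls (26.6%). That fit kept 13467 of the 13881 calls and lost 414, and none of the 13467 changed sign. It added 3603 calls, of which 3328 were smaller than 2-fold. A probe's standard error had a median of 0.0960 without the 2 arrays and 0.150 with all. Without them 6750 probes (23.4%) were called with at least 2-fold, 3055 higher (10.6%) and 3695 lower (12.8%). The added calls were thus mostly small, while counts of larger differences also moved, as given below.

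The difference was next read by the signal a probe started from in green berries. A probe that is dim by error alone in 1 array will look higher elsewhere, so the starting signal was taken from green extraction 1 and the difference from green extractions 2 and 3 and the 3 veraison arrays. These shares are descriptions of the estimates, with no test. The dimmest probes mostly stayed in place. Of the 6306 probes under 6, 6.87% were at least 2-fold higher at veraison and 0.127% at least 2-fold lower, and the quartiles of the difference were -0.02 and 0.34. A probe this close to the lower end of the scale has little room to fall.

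Higher values at veraison were most frequent in the lower middle of the scale. Between 7 and 8, 20.7% of 2222 probes were at least 2-fold higher and 17.1% at least 2-fold lower. In every bin from 8 onward, more probes were 2-fold lower than 2-fold higher. Between 10 and 11, 11.6% of 3082 probes were at least 2-fold higher and 17.9% lower, and between 13 and 14 the shares were 3.38% and 16.8% of 1925 probes. At 15 or above, none of 228 probes was 2-fold higher and 23.7% were 2-fold lower, with a median of -0.30. This bin has little room to rise. The share of bright starts that were 2-fold lower hardly moved without the 2 arrays that stood apart, at 17.0% between 13 and 14 and again 23.7% at 15 or above.

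Large changes came from opposite ends of the scale. Among probes that started under 8, 182 were at least 16-fold higher and 0 were 16-fold lower at veraison. Among probes that started at 11 or above, 1 was at least 16-fold higher and 218 were 16-fold lower. The limits of the scale set part of this, since a 16-fold change needs 4 log2 units of room.

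Called differences showed where such probes came from and where they went, by their stage means. A rise of at least 4-fold was called in 1069 probes (3.71%), of which 39.9% started under 7 and 32.5% between 7 and 9. At veraison 323 of them stood between 9 and 11, 331 between 11 and 13, and 242 at 13 or above. A fall of that size was called in 1494 probes (5.19%). Of these, 508 started between 9 and 11 and 436 between 11 and 13, and 707 (47.3%) ended under 7. A 4-fold rise must end higher and a 4-fold fall lower, so the end classes follow in part from the size limit. At the dim end, 39.9% of the rises started under 7 and 47.3% of the falls ended there. At the bright end, 22.6% of the rises ended at 13 or above and 15.7% of the falls started there.

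At 16-fold, 254 probes were called higher (0.882%) and 317 lower (1.10%). Of the rises 53.5% started under 7, and 38.6% ended at 13 or above. Of the falls 25.2% started at 13 or above, and 61.5% ended under 7. The start classes and the differences share the green arrays, so these shares are descriptions. Without veraison extraction 2 and green extraction 3 the counts were 246 higher (0.854%) and 354 lower (1.23%).

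The same reading was made from the end of the step, with bins set by veraison extraction 1 and the difference taken from the other arrays, a view added after the first had been seen. It was close to a mirror image at the bright end. Of 229 probes at 15 or above at veraison, 24.5% were at least 2-fold higher than in green berries and 0 were 2-fold lower. Of 1985 probes between 13 and 14, 15.3% were 2-fold higher and 3.58% lower. Bright probes of either stage thus tended to be less bright at the other. With like distributions at both stages and little room above, this follows once probes change, so it is a description. At the dim end the views differed more. Of 6440 probes under 6 at veraison, 10.5% were at least 2-fold lower than in green berries, against the 6.87% of dim starts that were 2-fold higher. Between 6 and 7 the shares were 23.2% of 2838 probes that ended there and 17.1% of 2888 that started there. More probes therefore arrived at the dim end than left it by at least 2-fold. Whether these shares differ beyond the error of the arrays was not tested.

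**Figure D1:**
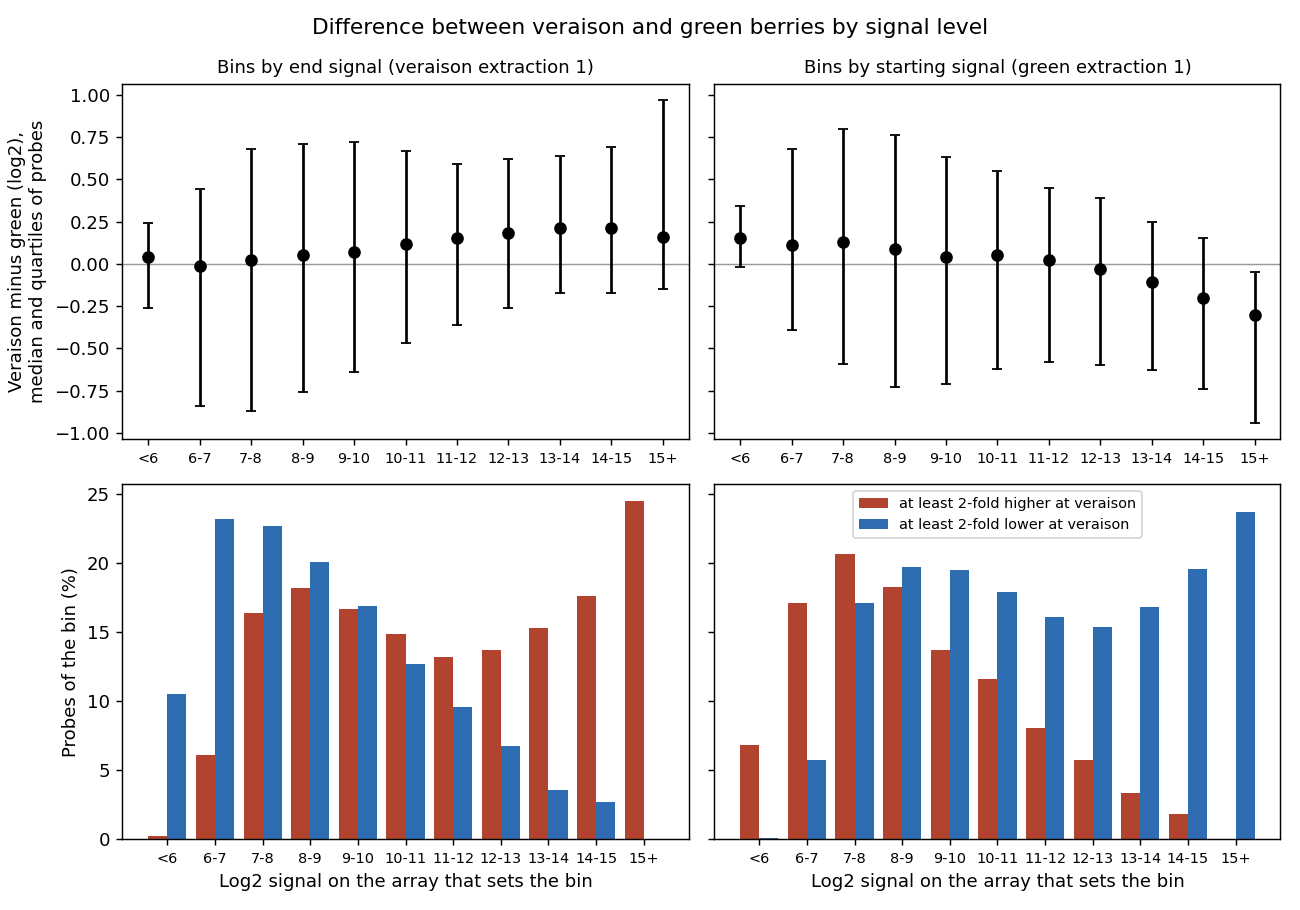
Veraison minus green difference by signal level, with bins set by veraison extraction 1 (left) or green extraction 1 (right). Points and bars in the upper panels are the median and quartiles over probes, and the lower panels give the percent of a bin at least 2-fold higher or lower at veraison, which reaches 24.5% higher for end signals and 23.7% lower for starting signals at 15 or above.

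The spread between extractions was also read by signal. Among probes under 6 on green extraction 1, the median SD between extractions was 0.199 at veraison and 0.145 in green berries. At 15 or above it was 0.0958 at veraison and 0.0597 in green berries. It was widest between 7 and 8, at 0.255 at veraison and 0.201 in green berries. Call shares differed by direction along the scale. They were 18.5% higher and 2.47% lower among the dimmest probes, 33.0% higher and 23.9% lower between 7 and 8, and 3.95% higher and 46.9% lower among the brightest. These calls use all 6 arrays, green extraction 1 included. Many calls at the bright end were small, since 46.9% of those probes were called lower and 23.7% were at least 2-fold lower.

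Probes were also placed in 5 classes by their stage means, with edges at 7, 9, 11 and 13. Of all probes, 70.7% stayed in their class. A move of 1 class up was seen in 3736 probes and of 1 class down in 3474. Moves of 2 or more classes went up in 525 probes (1.82%) and down in 714 (2.48%). The longest moves had the opposite balance, with 29 probes going from under 7 to 13 or above and 15 going the other way. Without veraison extraction 2 and green extraction 3 these counts were 511 up and 791 down for 2 or more classes, and 31 up and 21 down for the longest.

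The dim and bright classes are open at 1 end and can be left by 1 edge only, which by itself raises the share they keep. The dim class kept 86.7% of its 9180 green members at veraison and the bright class 74.0% of its 2926. The class from 7 to 9 kept 53.3% of 4732, and it sent 21.9% down to under 7 and 21.0% up to the class from 9 to 11. The other classes with 2 edges kept 59.9% of 5745 (9 to 11) and 68.7% of 6228 (11 to 13). Of the bright class, 20.8% went down 1 class, while 15 probes (0.513%) went to under 7.

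**Figure D2:**
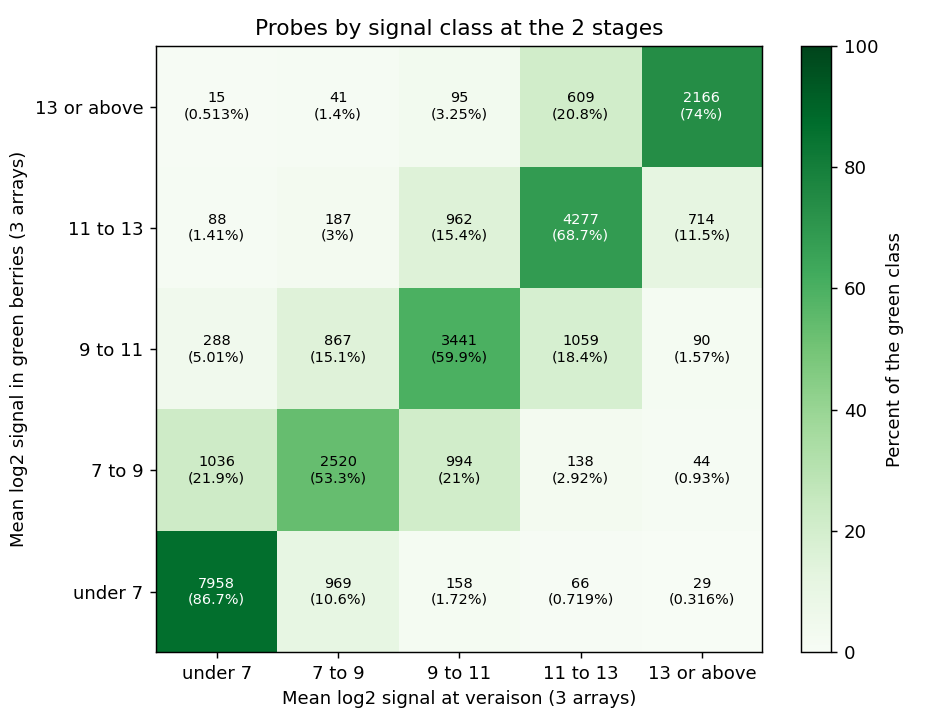
Probes by class of mean log2 signal, with the veraison class across and the green class up the page. Each cell gives the number of probes and, as its shade and in brackets, the percent of the green class; 7958 probes were under 7 at both stages and 2166 were at 13 or above at both.

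A probe was counted as switched on when every green array was under 7, every veraison array was at 9 or above (512 linear) and the difference was called. The rule uses the levels of both stages, so the levels of these probes are a description. Of the 8674 probes that were dim on all green arrays, 7283 (84.0%) were also dim on all veraison arrays. A called rise of at least 2-fold was seen in 832 (9.59%), against 10.6% of all probes. The dim set and the calls share the green arrays, so this share is a description. Of these 832, 188 were switched on, and the other 644 did not reach 9 on every veraison array. The 188 probes are 2.17% of those dim in green berries and 1.33% of the 14115 probes at 9 or above on all veraison arrays.

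The median log2 signal of the switched-on probes was 10.58, 10.72 and 10.66 on the veraison arrays, against 6.06, 6.08 and 5.99 on the green arrays. The 3 arrays of a stage lay close together, and by the rule the stages do not overlap in any of these probes. The difference had a median of 4.79, quartiles of 3.70 and 6.33, and a highest value of 9.68. A difference of at least 16-fold was estimated for 124 of the 188. Together these probes held 1.18%, 1.12% and 1.17% of the summed linear signal of the veraison arrays, against 0.0156%, 0.0158% and 0.0149% on the green arrays.

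Switched-off probes were defined the same way with the stages exchanged, and 256 met the rule. They are 2.97% of the 8611 probes dim on all veraison arrays and 1.77% of the 14433 at 9 or above on all green arrays. Their median log2 signal was 6.07, 6.16 and 6.05 on the veraison arrays, against 10.39, 10.32 and 10.15 on the green arrays. The difference had a median of -4.28 and quartiles of -5.21 and -3.62, and its extreme was -8.68. It reached 16-fold in 160 of the 256. They held 0.0211%, 0.0217% and 0.0209% of the summed signal on the veraison arrays, against 0.710%, 0.705% and 0.667% on the green arrays. The switched-off probes were more numerous, and the signal they had held in green berries was less than what the 188 switched-on probes held at veraison. With the classes chosen without veraison extraction 2 and green extraction 3, 208 switched-on probes held 1.23% and 1.22% on veraison extractions 1 and 3, and 391 switched-off probes held 0.982% and 0.971% on green extractions 1 and 2.

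**Figure D3:**
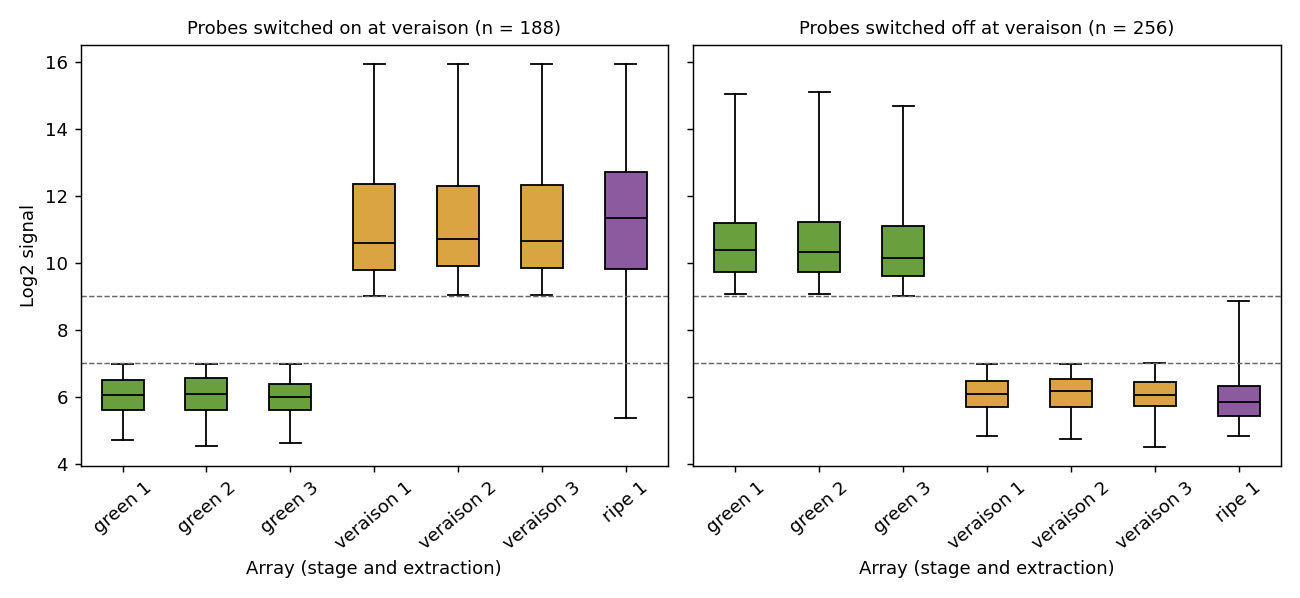
Log2 signal on each array of the 188 probes switched on (left) and the 256 switched off (right) at veraison, with stages in developmental order. Boxes show the quartiles and median over probes, whiskers the lowest and highest probe, and dashed lines the limits of 7 and 9; the ripe array, which the rule did not use, has a median of 11.35 on the left and 5.84 on the right.

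The balance of on and off depended on how high a level was required at the other stage. With 8 as the level, 319 probes were switched on and 479 off. With 10 the counts were 115 and 127. With 11 the order turned, at 74 on and 58 off. At 12 there were 53 on and 27 off, at 13 there were 24 and 7, and at 14 there were 11 and 2. With a level of 8 to 10, more probes went dim at veraison than came up from dim. With 11 to 14, those that reached the level from dim outnumbered those that left it for dim. With no level required, 8674 probes were dim on all green arrays and 8611 on all veraison arrays.

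Leaving out veraison extraction 2 and green extraction 3 moved this crossing upward. Without them 208 probes were switched on and 391 off at the level of 9, and 84 and 91 at 11. From 12 on the switched-on probes were again more numerous, at 58 on and 45 off for 12, 30 and 15 for 13, and 13 and 3 for 14. Fewer arrays let more probes pass a rule that asks for every array, which acts on both counts. The 16-fold rule at 11 thus changed its order with these arrays, and the order at 12 to 14 did not. After quantile normalization the counts at 12 were 53 on and 23 off, and after scaling to a common 75th percentile 53 and 28.

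**Figure D4:**
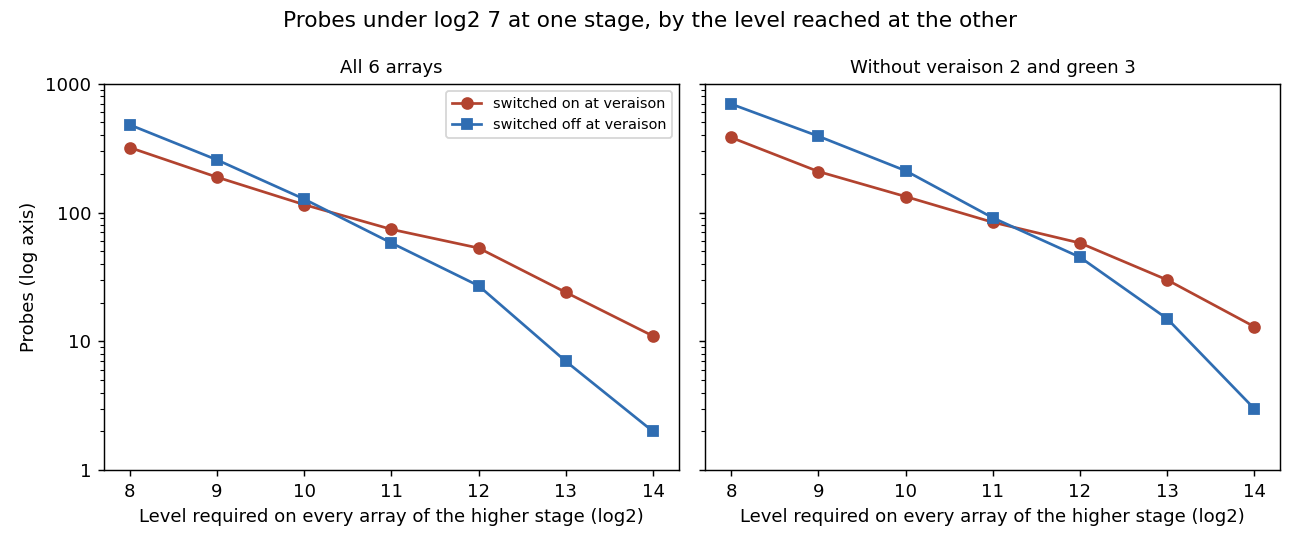
Number of probes (log axis) under 7 on every array of 1 stage that reached a given log2 level on every array of the other, with all 6 arrays (left) and without veraison extraction 2 and green extraction 3 (right). The lines cross between 10 and 11 with all arrays and between 11 and 12 without the 2; at 13 the counts are 24 on and 7 off on the left, and 30 on and 15 off on the right.

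Full losses from the bright end were few. Of 2657 probes at 13 or above on all green arrays, 1912 (72.0%) were still there on all veraison arrays, and a fall of at least 2-fold was called in 438 (16.5%), against 12.2% of all probes. Only 35 (1.32%) were under 9 on all veraison arrays, and 7 were dim on all of them. Seen from the other side, 2727 probes were at 13 or above on all veraison arrays, and a rise of at least 2-fold was called in 457 (16.8%), against 10.6% of all probes. Of these 2727, 52 (1.91%) had been under 9 on all green arrays and 24 had been dim on all of them. Each bright set was chosen on arrays that also gave the calls. Shares above those of all probes follow in part from that choice, and they are descriptions.

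The brightest 1% of probes, 288 by the mean of each stage, was largely exchanged among probes that were bright in any case. The stages shared 152 of the 288 (52.8%). The lowest mean in this set was 14.86 at veraison and 14.88 in green berries. The 136 probes that entered at veraison had a median mean of 14.06 in green berries, and 83 of them were already in the top 5% there. The 136 that left had a median mean of 14.27 at veraison, with 88 still in the top 5%. Entry from far below was seen in 9 probes, whose green mean was under 9, and 5 of those that left had a veraison mean under 9. A rise of at least 2-fold was called in 73 of the 136 probes that entered, against 10.6% of all probes. A fall of that size was called in 69 of the 136 that left, against 12.2% of all probes. Entering and leaving are set by stage means that also give the calls, so these counts follow in part from the choice. None of the 152 shared probes was called with a 2-fold difference, for which the scale left almost no room, since both means were at least 14.86 on a scale that ended at 15.99.

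The probes that entered the brightest set held 6.15%, 6.03% and 6.09% of the summed linear signal on the veraison arrays, against 2.65%, 2.61% and 2.52% on the green arrays. Those that left held 2.82%, 2.67% and 2.82% on the veraison arrays, against 6.02%, 6.08% and 5.99% on the green arrays. The brightest 1% of each array held 13.8%, 13.2% and 13.8% of its signal on the veraison arrays, against at least 13.8% on each green array. Scaling arrays to like distributions holds such shares alike, so they say little about the stages. The lowest share was that of veraison extraction 2, which also had the fewest probes at 15.5 or above, 63 against 76 and 75 on the other veraison arrays. Signals this close to the top of the scale may be compressed.

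Probes were named by the gap between the stages, which is the lowest array of the higher stage minus the highest array of the lower one. VitusP00163562 had the largest gap among switched-on probes. Its log2 signal was 15.07, 14.99 and 15.04 on the veraison arrays, against 5.26, 5.64 and 5.21 on the green arrays. The stages lay 9.36 apart at their nearest arrays. The fitted difference was 9.66 (SE 0.14, limma adjusted p 2.4e-07) with 6 arrays and 9.60 (SE 0.14, limma adjusted p 1.1e-05) without the 2 that stood apart.

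VitusP00219041 had the largest gap among called rises whose green mean lay in the middle 50% of all probes (6.26 to 11.57). Its log2 signal was 15.94, 15.93 and 15.92 on the veraison arrays, against 6.72, 6.78 and 6.27 on the green arrays. It started at the low edge of that range and was itself one of the switched-on probes. At veraison it stood almost at the top of the scale. Its difference was 9.34 (SE 0.15, limma adjusted p 2.4e-07), which may be understated there.

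VitusP00221017 had the largest gap among switched-off probes. Its log2 signal was 6.85, 6.02 and 5.91 on the veraison arrays, against 15.03, 15.10 and 14.69 on the green arrays. The difference was -8.68 (SE 0.26, limma adjusted p 9.5e-07), and -8.69 (SE 0.32, limma adjusted p 5.0e-05) without the 2 arrays. The veraison arrays spread more widely here than in the other named probes, with an SD of 0.51 (n = 3).

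VitusP00278788 had the largest gap among called falls that started in the middle 50%. Its log2 signal was 5.19, 5.25 and 5.34 on the veraison arrays, against 11.79, 11.77 and 11.08 on the green arrays. Green extraction 3 was the lowest of its stage, and the gap of 5.74 is measured to it. The difference was -6.29 (SE 0.20, limma adjusted p 1.2e-06), and -6.52 (SE 0.09, limma adjusted p 1.1e-05) without veraison extraction 2 and green extraction 3. Of the 14405 probes in the same middle range, 2171 were called at least 2-fold higher and 2356 at least 2-fold lower. Over all 28811 probes the counts were 3048 (10.6%) and 3520 (12.2%). The range and the calls share the green arrays, and the end bins have less room to move, so these counts are descriptions.

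**Figure D5:**
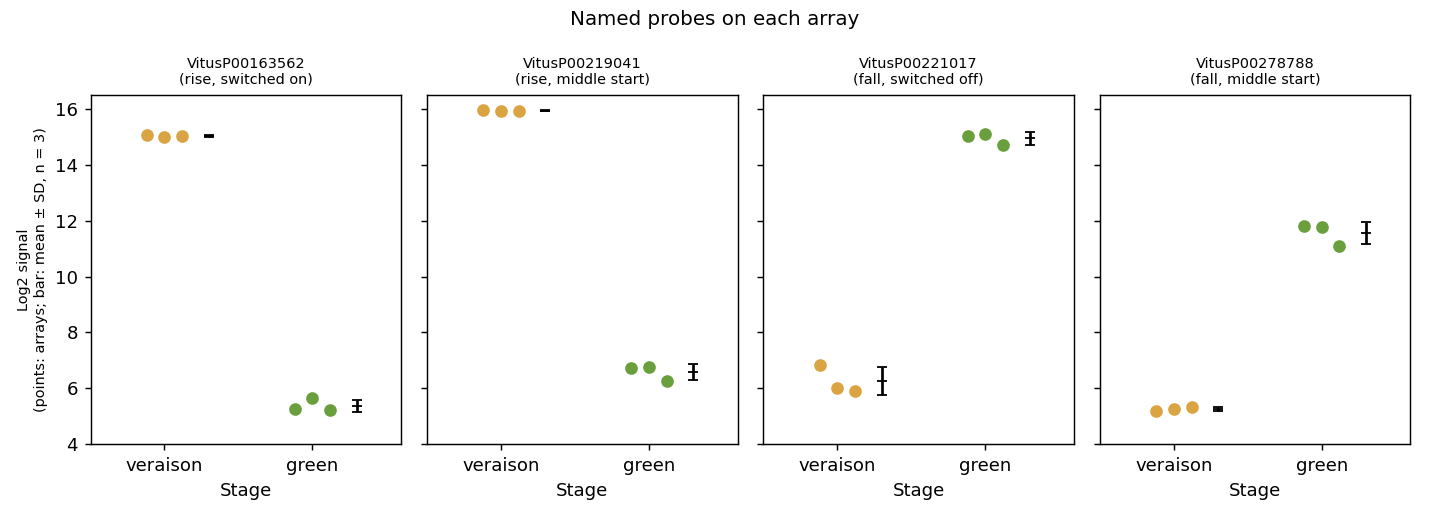
Log2 signal of the 4 named probes on each veraison and green array, with the mean and SD of each stage beside the points (n = 3). In every panel the stages are separated by at least 5.74 log2 units.

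The arrays that stood apart were also used to read classes chosen without them. With green extractions 1 and 2 and veraison extractions 1 and 3 alone, 208 probes met the levels of switched on. On veraison extraction 2, 198 of them (95.2%) were at 9 or above, none was dim, and the median was 10.62, against 10.53 for the mean of the other veraison extractions. On green extraction 3, 198 (95.2%) were dim and none was at 9 or above. The switched-on levels were thus found again on arrays that had no part in the choice, with the lowest value on veraison extraction 2 at 7.82.

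Switched-off probes held less closely. Of the 391 chosen on the 4 arrays, 325 (83.1%) were dim on veraison extraction 2, and 66 lay between 7 and 9. On green extraction 3, 311 (79.5%) were at 9 or above and 80 lay between 7 and 9, with a lowest value of 7.05. No probe crossed to the opposite level on either array. The median signal was 6.31 on veraison extraction 2, against 6.18 for the mean of the other veraison extractions. It was 9.86 on green extraction 3, against 10.13 for the mean of the other green extractions. An array that had no part in the choice can lie nearer to the limits than the arrays that had to pass them. Among the switched-on probes the shifts went away from the limits. The median difference from the other extractions' mean was 0.09 on veraison extraction 2 and -0.06 on green extraction 3. For the switched-off probes it was 0.19 and -0.27. Over all probes it was 0.11 and 0.03, so the shift of the switched-on probes on veraison extraction 2 was no larger than that of the whole array. Whether the shifts of either class are a property of the 2 arrays was not tested.

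Called differences chosen the same way were also read on these arrays, with the same limit. For the 3695 probes called at least 2-fold lower without the 2 arrays, veraison extraction 2 was above the mean of the other veraison extractions by a median of 0.21, against 0.11 over all probes. Green extraction 3 was below the mean of the other green extractions in these probes, by a median of -0.11, against 0.03 over all probes. For the 3055 rises the medians were 0.11 on veraison extraction 2 and 0.02 on green extraction 3, close to those of all probes. In 8.81% of the rises veraison extraction 2 was at least 2-fold nearer to green than the other veraison extractions, and in 0.229% it was that much farther. In the falls it was 2-fold nearer to green in 1.24% and farther in 3.14%, so the larger shifts went against the median there. Green extraction 3 was at least 2-fold nearer to veraison than the other green extractions in 7.33% of the falls and farther in 0.135%. In the rises it was nearer in 0.262% and farther in 0.982%. Over all 28811 probes and in either direction, veraison extraction 2 was at least 2-fold apart from extractions 1 and 3 in 2044 and 1694 probes. Green extraction 3 was that far from green extractions 1 and 2 in 460 and 477 probes. These counts are against single extractions, while the shares above are against the mean of the other extractions. No share over all probes was read in that measure, so the shares above are not set apart from those of all probes.

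Set singly against the mean of the green arrays, veraison extraction 2 was at least 2-fold higher in 3845 probes and lower in 4330. The other veraison extractions were 2-fold higher in 3078 and 3036 probes, and lower in 3646 and 3622. These 3 readings share the green arrays. At 16-fold the counts were nearer to each other, with 272 higher and 318 lower for extraction 2, against 248 and 337 for extraction 1 and 254 and 329 for extraction 3. What sets the 2 arrays apart was not tested.

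On the single ripe array, 158 of the 188 switched-on probes (84.0%) were at 9 or above and 8 were dim. Of the 256 switched-off probes, 233 (91.0%) were dim on it and none was at 9 or above. With 1 ripe array these shares have no replicate check.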

How the data were processed

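Total RNA of pooled berry tissue was labelled with Cy3 and hybridised to 1-colour NimbleGen arrays, per the labels' protocols. The authors deposited log2 signals, 1 per probe and array; the base was taken from the values, which end just under 16. The submitters' processing notes name RMA, a procedure that usually includes background correction, quantile normalization and a summary over oligonucleotides, with no parameters. Scanning is not given in the sources used here. Deposited values were used unchanged, and all columns were matched to samples (0 left unmatched).

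Differences were fitted with limma 3.58.1 in R 4.3.3 (lmFit, eBayes) on the 6 arrays with stage as the only term, which leaves 4 residual degrees of freedom (2 without veraison extraction 2 and green extraction 3), with Benjamini-Hochberg adjustment over 28811 probes and two-sided tests. The fit was tested on simulated data. Arrays give no read depth, and their number limits the precision. Equal replicate numbers do not pair the arrays: deviations from the stage means correlated over probes at -0.21, -0.12 and 0.05. The comparison, limits and lists were chosen with earlier results of these data known. Lists of genes by product name and tissue markers could not be used without gene names. Named were the switched-on and switched-off probe with the largest gap and, in each direction, the called probe with the largest gap among those whose green mean lay in the middle 50%.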

Additional observations from a re-analysis of the deposited data

How the results depend on the processing

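Of 86 recomputed counts, 71 stayed within 1.5 times their reported value, some of which could hardly move, as given below. The 15 others are these. Adding 50 to the linear signal, a step that compresses the dim end by construction, meant that 105 probes were switched on and 135 off, against 188 and 256. A dim limit of 6 gave 99 on and 130 off, a distance of 1 gave 319 and 479, and a distance of 4 gave 74 and 58, the order of which is turned. Leaving out both veraison extraction 2 and green extraction 3 gave 391 switched off, and so did stage means in place of all arrays. limma's treat against a 2-fold change called 3573 probes in place of 6568. With bins set by the mean of both stages, which keeps large changes out of the end bins, dim starts at least 2-fold higher numbered 403 in place of 927, and bright starts at least 2-fold lower 198 in place of 535. The brightest sets shared 45 probes for the top 100 and 957 for the top 5%.

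Leaving out single arrays gave 11107 to 16107 calls, 6383 to 6725 of at least 2-fold, 189 to 201 switched on, 260 to 325 switched off (highest without green extraction 3), and 148 to 158 shared brightest probes. Without veraison extraction 2 there were 936 such dim starts and 541 such bright starts. A fit with the replicate block called 12263 probes, 6544 of at least 2-fold, and changed no named call. It left 188 and 256 probes switched on and off. The levels alone already gave these 2 counts without the call. Refits that leave the values as they are (the block, another variance, a stricter adjusted p) could therefore hardly move them, and say little about them. The 13881 called probes kept their sign in each refit in which they were tested, although another variance or the block leaves the estimate as it was. The 4 named probes passed the threshold in all 60 recomputations, with differences from 8.52 to 9.80, 8.73 to 9.43, -8.98 to -7.95 and -6.52 to -5.11. They were picked for the largest gaps on these same arrays, so that passing was all but set by the choice. The median difference over all probes was 0.08, and 0.07 and 0.04 under the other scalings. Signals near either end of the scale may be compressed.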
